A study of Mus musculus with 8 samples.

Results

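The solute carrier (Slc) genes encode membrane proteins that carry nutrients, ions, metals and metabolites across the cell surface and organelle membranes. They were read on 2-colour Agilent whole mouse genome arrays of intestinal epithelium. Members were chosen by name: the genes whose array name is Slc, a family number, the letter a and a member number. The mitochondrial Slc25 family (41 genes) and 5 other genes of that form were left out, which leaves 252 of the 27845 gene names on the array. The rule also selects on brightness and keeps the 300 brightest genes, where brightness is the sum of both channels' mean spot signals over the 4 deletion arrays. That limit removed none, and brightness ran from 167 to 321300. Each gene was read from its brightest probe, and 110 of the 252 have more than 1 probe.

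The sorted cells came from intestines of Lgr5-EGFP-ires-CreERT2 mice, in which GFP and an inducible Cre are made from the Lgr5 gene. GFPhi cells, with high GFP, were hybridised against GFPlo cells, with low GFP, in 2 sorts that each pooled 3 mice. The deletion arrays compared Ah-Cre/Ascl2floxed/floxed epithelium with Ah-Cre/Ascl2floxed/wt epithelium, 3 and 5 days after induction. Both genotypes therefore carry the inducible Ah-Cre and at least 1 floxed allele, and the control can lose 1 copy of Ascl2. Ages and the number of animals behind each deletion RNA are not given in the sources used here. Each RNA pair (sort 1, sort 2, day 3, day 5) was hybridised on 2 arrays with the dyes swapped, 8 arrays in all. Ratios are given as log2 of GFPhi over GFPlo or of deleted over control, so that 1 is 2-fold higher and -1 is 2-fold lower. The replicate is the RNA pair: n = 2 sorts, and 1 pair a day in the deletion, so errors and p-values measure only the spread between these pairs.

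In the small intestine, sugar, amino acid, peptide, phosphate and vitamin carriers sit mostly in the brush border of absorptive villus cells, driven by the sodium or proton gradient. Exporters such as the iron exporter ferroportin sit in the opposite, basolateral membrane. Dividing crypt cells rely on other carriers, among them those that take up amino acids to build protein. Lgr5 marks the stem cells at the crypt base, and Ascl2 is a basic helix-loop-helix transcription factor made in those cells.

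The targeted gene and the sort gene ran with their labels: Ascl2 was at -1.34 on day 3 and -1.54 on day 5, and Lgr5 at 2.10 and 2.57 in sorts 1 and 2. The share of spots clearly above background ranged from 55% to 66.9% over the channels of the deletion arrays and from 35.5% to 44.6% in the sorts. Over all probes, the day 3 and day 5 arrays did not correlate with each other (r from -0.07 to 0.03). The dye swaps of a day did (r = 0.81 and 0.78). The dye swaps of a sort correlated weakly (r = 0.27 in sort 1 and 0.307 in sort 2). Arrays of different sorts with the same dye correlated more (r = 0.483 for Cy3 and 0.411 for Cy5), and the cause was not tested. The days also differed in markers of cells around the epithelium. The tested fibroblast markers (6 of 7) had a median of -0.53 on day 3 and 4.75 on day 5. The tested T cell markers (10 of 10) had medians of 1.02 and -0.06, and the tested myeloid markers (7 of 9) 0.11 and 0.95. Among epithelial lists, enterocyte markers (13 of 15) had medians of 0.66 and -0.44, cell-cycle genes (11 of 12) -1.14 and -0.07, and Paneth cell markers (6 of 10) -1.31 and -0.21. In the sorts, enteroendocrine markers (12 of 13) had a median of -1.90, goblet markers (8 of 10) -1.57, enterocyte markers (11 of 15) -0.38 and crypt-base genes (11 of 12) 0.89. The part these cell types have in the transporter ratios was not tested. In such bulk RNA, fewer cells of a type and less RNA per cell cannot be told apart.

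A transporter entered the test if 1 of its 2 RNAs gave a signal well above background on all 4 arrays. That kept 96 of the 252 transporters in the sorts and 178 in the deletion. No transporter passed limma's moderated test in either comparison at a Benjamini-Hochberg adjusted p of 0.05 over all genes tested. No gene of the 10379 tested in the sorts or the 15994 tested in the deletion did either (percent called 0 in both). At an unadjusted p under 0.05 limma gave 4 transporters higher and 10 lower in GFPhi cells, and 12 higher and 8 lower after deletion. The shares over all genes were 5.08% higher and 5.00% lower in the sorts, and 5.02% and 4.43% in the deletion. The smallest adjusted p of a transporter was 0.272 in the sorts and 0.223 in the deletion. The values below are therefore given with their errors and array by array, and no transporter is said to have changed in these comparisons. Each gene has the same error in both comparisons, because the fit pools the spread between the sorts with that between the deletion days. An error given for the sorts can thus come mostly from the days.

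Slc7a8 and Slc14a1 were the transporters with 1 sign on all 4 arrays and at least 1.5-fold in both comparisons. Slc7a8 encodes a light chain of a neutral amino acid exchanger in the basolateral membrane. In the sorts its log2 ratio was -0.72 and -0.81 on the sort 1 arrays and -0.73 and -1.03 on the sort 2 arrays. After deletion it was -0.36 and -0.90 on day 3 and -1.15 and -0.77 on day 5, so that the days overlapped. The means were -0.82 ± 0.12 in the sorts and -0.80 ± 0.12 in the deletion (SE of the fit, n = 2 RNA pairs each), 1.77-fold and 1.74-fold lower. Slc7a8 was chosen as a mark of this gene set with its ratios known, so no test is given for it. All 8 arrays thus read Slc7a8 lower in GFPhi than in GFPlo cells and lower in deleted than in control epithelium. The probe lies at chr14:53676505-53676564 (mm8). The heavy chain that pairs with it, Slc3a2, was at -0.27 and -0.25 in the sorts and at 0.26 on day 3 and -0.31 on day 5; it was looked up after its partner's values were seen.

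Slc14a1, a urea transporter, went opposite ways. In the sorts it read 1.25 and 1.28, then 0.89 and 0.91, all above 0. After deletion it read -0.29 and -0.45 on day 3 and -1.02 and -0.90 on day 5, all below 0. The means were 1.08 ± 0.19 in the sorts (limma adjusted p = 0.297) and -0.67 ± 0.19 in the deletion (adjusted p = 0.482). A second probe of the gene, also above background, read 1.14 and 1.02 in the sorts and -0.35 and -0.99 on the 2 days. Of the 96 transporters tested in both comparisons, 16 kept 1 sign on all arrays of each. The split was 7 lower in GFPhi cells and higher after deletion, 2 the reverse, 4 lower in both and 3 higher in both. Over all 10266 genes tested in both, the shares were 2.86%, 4.02%, 1.65% and 1.60%. Among the 7 were Slc6a9, Slc43a2, Slc44a4, Slc30a1, Slc36a1 and Slc35a3. In that order these carry glycine, large neutral amino acids, choline-like substrates, zinc, small amino acids and a nucleotide sugar.

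Ascl2 and its relatives bind E-boxes, which have the letters CANNTG, so the 250 bases before the start site are shown for the 3 genes whose deletion ratios open the next paragraphs or stand above. Sequences are from RefSeq (GRCm38.p6), 5′ to 3′ on the gene's strand, with every CANNTG in capitals.
Slc7a8, chr14:54781887-54782136, minus strand: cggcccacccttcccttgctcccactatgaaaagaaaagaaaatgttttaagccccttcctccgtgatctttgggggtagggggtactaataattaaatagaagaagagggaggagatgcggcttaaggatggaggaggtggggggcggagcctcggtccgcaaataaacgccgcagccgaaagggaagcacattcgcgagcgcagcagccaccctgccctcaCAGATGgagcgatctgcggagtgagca
Slc5a8, chr10:88885742-88885991, plus strand: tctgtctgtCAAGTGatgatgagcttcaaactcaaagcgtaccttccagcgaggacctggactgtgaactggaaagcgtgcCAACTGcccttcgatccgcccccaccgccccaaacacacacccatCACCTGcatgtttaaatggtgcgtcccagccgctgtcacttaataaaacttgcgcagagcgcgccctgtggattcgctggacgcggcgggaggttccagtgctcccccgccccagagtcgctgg
Slc16a12, chr19:34747329-34747578, minus strand: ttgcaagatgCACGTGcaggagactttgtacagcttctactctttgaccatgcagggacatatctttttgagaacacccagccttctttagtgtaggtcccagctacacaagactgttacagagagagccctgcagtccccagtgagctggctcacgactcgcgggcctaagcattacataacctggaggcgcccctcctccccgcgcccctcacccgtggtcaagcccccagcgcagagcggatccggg
The motif reads the same on both strands. The Slc7a8 and Slc16a12 windows hold 1 match each and the Slc5a8 window 3. Such windows were found for 188 of the 252 members. Of their 242 windows, 68.6% hold a CANNTG, against 66.2% of 32851 windows of all genes. CAGCTG, one of the forms of CANNTG, was in 13.6% of the members' windows and 13% of all. CACCTG, searched with its reverse complement CAGGTG, was in 21.9% and 17.2%. A match describes these letters and is not a binding site.

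Among the transporters tested in the sorts, more lay below 0 than above: 58 of 96 were below (60.4%, against 49.0% of all genes tested) and 38 above (39.6%, against 50.9%). None was 2-fold from 0 on each array in 1 direction, where 0.106% of all genes were higher and 0.385% lower. Of the 96, 33 were below 0 on all 4 arrays (34.4%, against 16.8% of all genes) and 20 were above 0 on all 4 (20.8%, against 17.2%). The transporters' median was -0.05, and that of all tested genes 0.00. Slc12a8, of the cation-chloride cotransporter family, read -1.36 and -1.20 on the sort 1 arrays, then -0.32 and -0.95 (mean -0.96 ± 0.18, limma adjusted p = 0.313). Slc6a8, the creatine transporter, averaged -0.69 ± 0.24, and Slc26a6, an apical chloride and bicarbonate exchanger, -0.68 ± 0.24. Slc7a9, the brush border cystine carrier, read -0.84, -0.48, -0.78 and -0.36. Slc2a5, the fructose transporter, read -0.53, -0.56, -0.64 and -0.45, a narrow spread between arrays. Slc18a1, which loads monoamines into the vesicles of enteroendocrine cells, was at -0.57, -0.48, -0.53 and -0.67. Its probe was not well above background in GFPhi cells on any array, so the measured ratio is a bound: at least 1.48-fold higher in GFPlo cells. The enteroendocrine markers given above moved the same way, and their part in the Slc18a1 value was not tested.

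**Figure D1:**
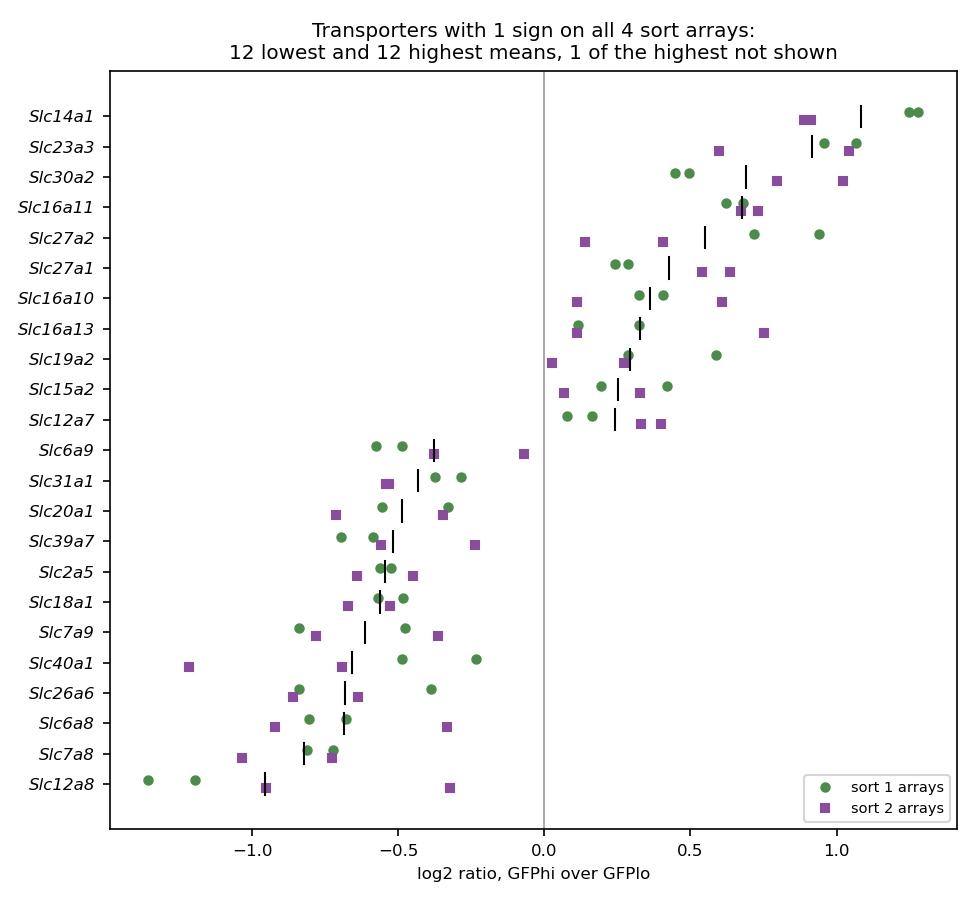
The horizontal axis is the log2 ratio of GFPhi over GFPlo cells for the 12 lowest and 12 highest transporters with 1 sign on all 4 sort arrays, 1 of the highest not being shown. Circles are the 2 sort 1 arrays, squares the 2 sort 2 arrays and black bars the mean of the 4. The means run from -0.96 for Slc12a8 to 1.08 for Slc14a1.

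Carriers of metals were mostly on the lower side: 14 of 19 tested metal transporters were below 0, 8 of them on all 4 arrays, where all genes were below 0 in 49.0% and on all 4 arrays in 16.8%. Slc39a7, a zinc carrier of the endoplasmic reticulum, averaged -0.52 ± 0.16, Slc31a1, the copper importer, -0.43 ± 0.17, and Slc30a1, a zinc exporter of the cell surface, -0.36. Slc40a1, the iron exporter ferroportin, read -0.49 and -0.23 in sort 1 and -1.22 and -0.69 in sort 2, so its arrays spread widely. Slc30a2, a zinc transporter of secretory vesicles, was the exception at the high end, reading 0.50, 0.45, 1.02 and 0.80 (mean 0.69 ± 0.18, limma adjusted p = 0.380). Of 18 tested amino acid and peptide transporters, 13 were below 0. Slc20a1, a phosphate importer, was at -0.49 ± 0.16, with sort means of -0.44 and -0.53, and its second probe above background gave -0.44 and -0.17.

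At the high end stood Slc23a3, a relative of the vitamin C transporters, at 1.07, 0.96, 1.04 and 0.60. Members of the monocarboxylate family followed. Slc16a11 read 0.62, 0.68, 0.73 and 0.67, the closest agreement among the named high members. Its mean was 0.68 ± 0.22, where the error comes mostly from the deletion days (means of 0.70 and -0.14). Slc16a10, an aromatic amino acid carrier, averaged 0.36, but a second probe above background gave -0.02 and 0.01 for the sorts, so its value depends on the probe. Slc16a13 averaged 0.33. In the same family Slc16a1, the main lactate and butyrate carrier, was at -0.34, Slc16a3 at -0.32 and Slc16a6 at -0.34, so the 7 tested mono- and dicarboxylate carriers split 4 to 3. Slc27a2, a fatty acid transport protein, was at 0.83 and 0.27 in the 2 sorts, with a second probe above background at 0.29 and 0.18, and Slc27a1 was at 0.26 and 0.59. Slc15a2, a peptide carrier, read 0.42, 0.19, 0.33 and 0.07. Slc19a2, a thiamine carrier, averaged 0.29 and Slc12a7, a potassium and chloride cotransporter, 0.24.

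The absence of calls in the sorts depends on the fit. The spread in the joint fit includes the difference between the deletion days. When the 2 sorts were fitted alone, limma called 26 transporters (8 higher, 18 lower) and 1334 of the 10379 genes (27.1% of those tested, against 12.9%), with Slc14a1 and Slc23a3 at an adjusted p of 0.00119. When the 8 arrays entered singly, with each RNA pair as a random block, 4 of 96 lay past the threshold (4.17%, against 2.24% of all genes). They were Slc12a8, Slc14a1 and Slc30a2 (limma adjusted p from 0.00437 to 0.0344) and Slc7a8, for which nothing is read from the test.

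After deletion, Slc5a8 stood farthest from 0 in the mean of both days, with Slc34a2 farther on day 3 alone and Slc40a1 on day 5 alone. It encodes a sodium-coupled carrier of short-chain fatty acids and lactate in the apical membrane. Its ratio was 2.42 and 2.78 on day 3 and 1.83 and 1.96 on day 5, with both day 5 arrays below both day 3 arrays. The mean was 2.25 ± 0.20 (n = 2 RNA pairs), 4.75-fold higher in deleted epithelium. Slc5a8 was chosen with this ratio known, so no test is given. Its probe (chr10:88358942-88359001, mm8) was well above background in both RNAs on all 4 deletion arrays and in neither RNA on any sort array. Its ratio in sorted cells is therefore not measured here. It was 1 of 2 transporters with at least 2-fold on each deletion array in 1 direction, and the only one on the higher side, where 0.0938% of all genes were found.

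Slc16a12, a creatine carrier of the monocarboxylate family, was the one on the lower side, where 0.0750% of all genes were found. It read -1.27 and -1.29 on day 3 and -1.56 and -1.26 on day 5, so the days overlapped. The mean was -1.34 ± 0.10 (limma adjusted p = 0.223), 2.54-fold lower in deleted epithelium. Its probe lies at chr19:34735146-34735205 (mm8) and was too dim to be tested in the sorts. Other lactate carriers of that family were also below 0 on all 4 arrays: Slc16a7 averaged -0.44 ± 0.14 and Slc16a1 -0.40 ± 0.15. Of the 15 tested mono- and dicarboxylate carriers, 3 were below 0 on all 4 arrays, and Slc5a8 was the 1 above 0 on all 4. The shares of all genes were 12.9% below and 13.1% above.

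Slc34a2, the brush border phosphate carrier, read 2.59 and 2.76 on day 3 but 0.98 and 0.82 on day 5 (mean 1.79 ± 0.44, limma adjusted p = 0.459). A second probe, above background in the deletion, read 2.34 and 0.73. The day difference makes the error of the mean large. Slc6a9, a glycine carrier, was at 1.08 and 1.11, then 0.54 and 0.52 (mean 0.81 ± 0.18, adjusted p = 0.425). Slc43a2, a carrier of large neutral amino acids, was at 0.85 and 0.83, then 0.40 and 0.52, and a second probe above background gave smaller values of 0.32 and 0.18 for the days. Slc43a3, a nucleobase carrier of that family, averaged 0.53 ± 0.14, with day means of 0.32 and 0.75. Metal carriers held 10 members above 0 on all 4 arrays and 1 below, of 29 tested, where the shares of all genes were 13.1% and 12.9%. Slc41a3, a magnesium transporter, had means of 1.30 on day 3 and 0.27 on day 5, and Slc30a4, a zinc transporter, 0.80 and 0.12, so that both were mostly a day 3 reading. Slc11a1, the metal pump of phagocytes, was at 0.78 and 0.44 (mean 0.61 ± 0.12). Its probe was well above background on 4 arrays in deleted RNA and on 3 in control RNA. Slc11a1 thus entered the test only through the RNA where it is higher. Slc39a8, a zinc and manganese importer, was at 0.27 and 0.59, and a second probe above background gave -0.03 and 0.34. The tested myeloid markers, which include phagocyte genes, were above 0 in the mean of both days in 7 of 7 cases (49.8% of all genes). On day 3, Cd14, Csf1r and Itgam were below 0 (-0.17, -0.16 and -0.21). The myeloid markers had medians of 0.11 on day 3 and 0.95 on day 5, whereas Slc11a1 was higher on day 3. The part of such cells in the Slc11a1 value was not tested. Slc9a3, the apical sodium and proton exchanger, was at 0.28 and 0.36 on day 3 and 1.09 and 1.10 on day 5. A second, above-background probe of Slc9a3 gave -0.08 and 0.17, so its size depends on the probe.

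**Figure D2:**
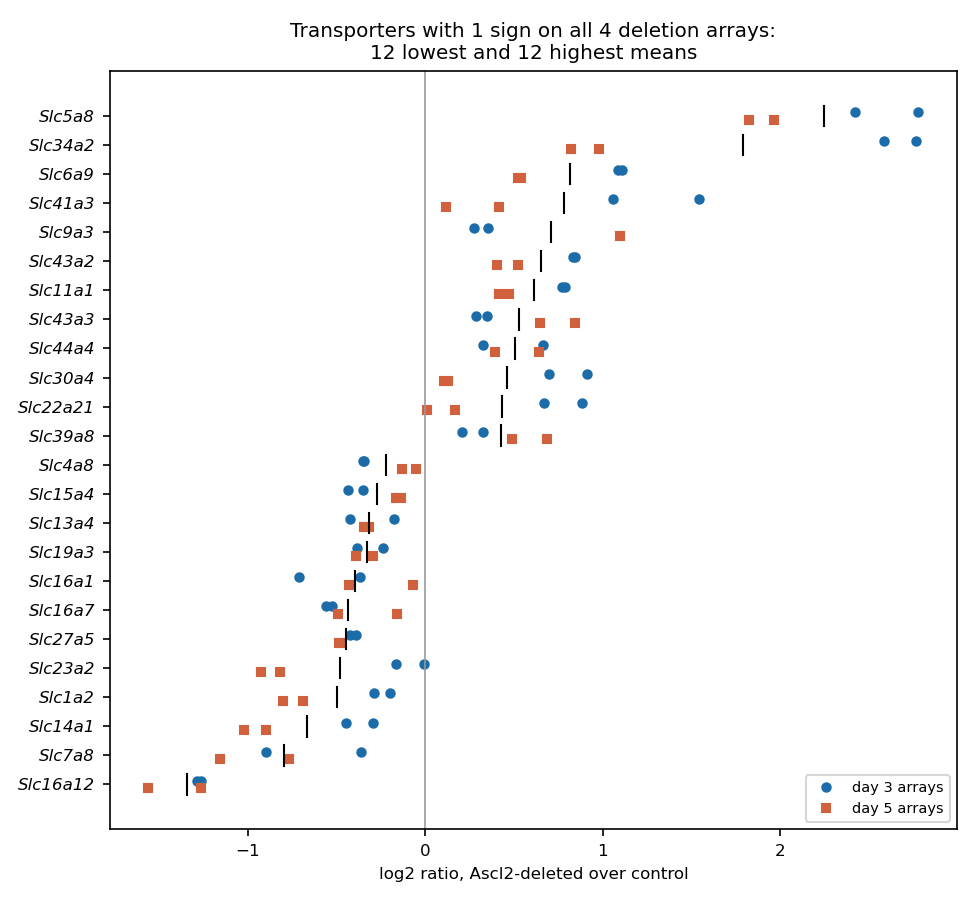
The horizontal axis is the log2 ratio of Ascl2-deleted over control epithelium for the 12 lowest and 12 highest transporters with 1 sign on all 4 deletion arrays. Circles are the 2 day 3 arrays, squares the 2 day 5 arrays and black bars the mean of the 4. Slc5a8 is highest, with day 3 at 2.42 and 2.78 and day 5 at 1.83 and 1.96, and Slc16a12 is lowest at a mean of -1.34.

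On the lower side, Slc1a2, a glutamate carrier, was at -0.20 and -0.29 on day 3 and -0.69 and -0.80 on day 5. Its probe was well above background on 4 arrays in control RNA but on only 1 in deleted RNA. Slc1a2 thus entered the test through the control alone, and its deleted signal lies near background. A second probe above background gave -0.29 and -0.83. Slc23a2, a vitamin C carrier, was at -0.01 and -0.17, then -0.92 and -0.82. Slc27a5, a bile acid and fatty acid ligase of the liver, stayed between -0.39 and -0.49 on all 4 arrays (mean -0.44 ± 0.09). Slc19a3, a thiamine carrier, averaged -0.33, Slc13a4, a sulfate carrier, -0.31, Slc15a4, a lysosomal peptide and histidine carrier, -0.27, and Slc4a8, a bicarbonate carrier, -0.22. The probes of Slc19a3 and Slc13a4 were well above background on 4 arrays in control RNA and on 3 in deleted RNA. Over all tested transporters, 98 of 178 had a mean above 0 (55.1%, against 49.8% of all genes) and 80 below (44.9%, against 50.2%). On all 4 arrays, 29 were above 0 (16.3%, against 13.1% of all genes) and 20 below (11.2%, against 12.9%). The members' median on day 3 was 0.08, that on day 5 -0.03, and that of all genes over both days -0.00. The mean of both days called none, but the 8 arrays entered singly, with each RNA pair as a random block, gave 9 past the threshold (5.06%, against 2.16% of all genes). They were Slc34a2, Slc6a9, Slc43a2 and Slc11a1 on the higher side, Slc16a12, Slc14a1 and Slc27a5 on the lower, and Slc5a8 and Slc7a8, for which nothing is read from the test. Nothing is read from it for Slc11a1 either, which passed the signal filter only through the deleted RNA. Without day 5 limma called 86 transporters (48.3%, against 38.1% of all genes), and without day 3 it called 43 (24.2%, against 12.7%), where the lone pair is assumed to vary like the sorts.

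By substrate, the class medians in the deletion were small beside the ratios of the members named above. Sugar carriers (19 tested) were at 0.09 on day 3 and -0.06 on day 5, and none kept 1 sign on all 4 deletion arrays. Inorganic ion carriers (35 tested) were at 0.17 and -0.02. Amino acid and peptide carriers (33 tested) were at -0.03 and -0.02, with members far on both sides. Carriers of bile acids and organic ions (11 tested) were at 0.06 and -0.06, and of vitamins and choline (11 tested) at 0.08 and -0.17. Among the former Slc22a21, a carnitine carrier, was at 0.88 and 0.67 on day 3 and 0.01 and 0.17 on day 5. Among the latter Slc44a4, a choline-like transporter, was at 0.67, 0.33, 0.40 and 0.64 (mean 0.51 ± 0.11, limma adjusted p = 0.411), and a second probe gave 0.52 and 0.53 for the days.

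**Figure D3:**
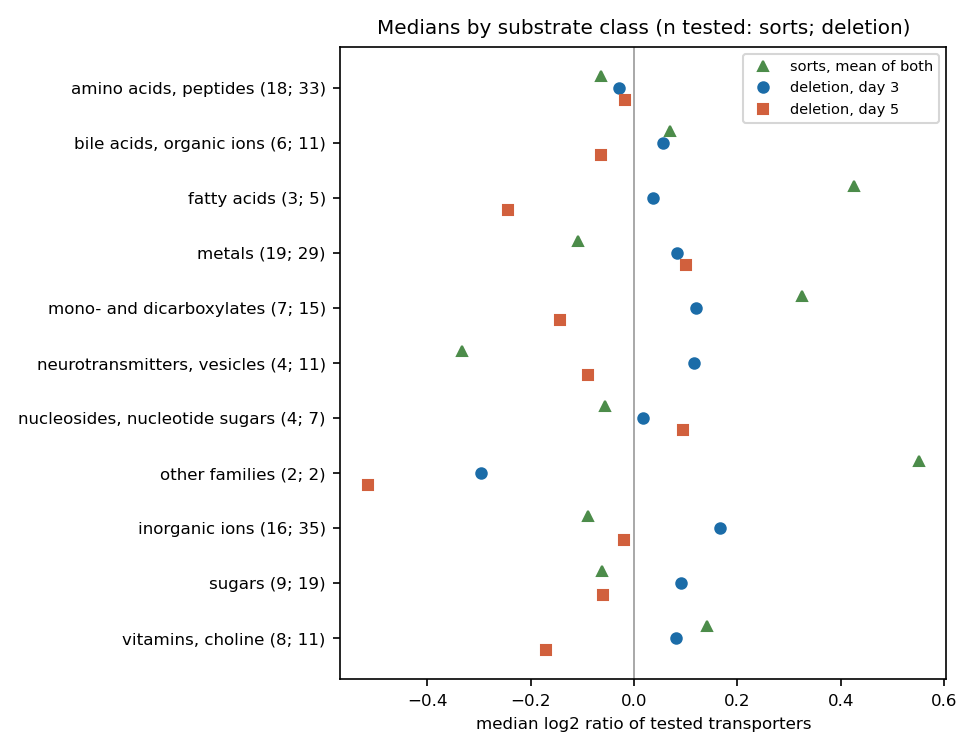
The horizontal axis is the median log2 ratio of the tested transporters of each substrate class, with the number tested in the sorts and in the deletion in brackets. Triangles are the mean of both sorts, circles day 3 and squares day 5 of the deletion. Vitamin and choline carriers move from 0.08 on day 3 to -0.17 on day 5, and metal carriers stay at 0.08 and 0.10.

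The deletion ratios differed between the days for many transporters. Of 178 tested, 76 passed limma's test of day 5 minus day 3 at an adjusted p of 0.05 (42.7%, against 29.9% of all genes). Slc5a8 and Slc40a1 are within these counts, and nothing is read from their test. Of the 76, 52 were lower on day 5 (29.2%, against 13% of all genes) and 24 were higher (13.5%, against 16.9%). Without regard to the test, both day 5 arrays lay below both day 3 arrays for 80 transporters (44.9%, against 33.2% of all genes) and above them for 47 (26.4%, against 35.3%). There is 1 RNA pair a day, so the spread comes from the 2 sorts alone. The test thus says that the day 3 and day 5 RNAs differed, not that days in general do. Of the 178, 82 were too dim to be tested in the sorts, and for them that spread is between dim signals. They gave 32 of the 76 calls (39% of the 82, against 25.3% of all genes too dim there). The median standard deviation between the sorts was 0.0659 for such genes and 0.0893 for genes tested there. With the scanner's own processed signals limma called no transporter (smallest adjusted p of a transporter 0.240) and 0 of all 15994 genes tested. With the authors' deposited ratios 38 of 153 passed (24.8%, against 12.9% of all genes), and with median centring in place of loess 27 of 178 (15.2%, against 7.42%), and the sign of each of the 76 was kept in all 3 wherever it had a value.

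The carriers that were above 0 on day 3 and below 0 on day 5 include several of the brush border. Slc5a12, a sodium-coupled lactate carrier and the closest relative of Slc5a8 in function, was at 1.64 and 1.57 on day 3 and -1.13 and -0.75 on day 5. Its day difference of -2.54 ± 0.15 was the lowest of all members (limma adjusted p = 2.23e-05). Slc5a12 was too dim to be tested in the sorts, so this error is a spread between dim signals. Slc15a1, the apical carrier of dietary peptides, went from 1.27 and 1.32 to -0.51 and -0.41. Slc6a19, the main apical carrier of neutral amino acids, went from 0.98 and 1.44 to -0.20 and -0.74. The days did not overlap for these genes, which was a condition for naming them by their day difference. Slc23a1, the apical vitamin C carrier, went from 0.80 and 0.53 to -0.81 and -0.98. Slc34a2 was above 0 on both days, and Slc34a3, another phosphate carrier, was at 0.64 and 0.60, then -0.88 and -0.90. Slc6a3, the dopamine carrier, was at 0.50 and 0.57, then -1.52 and -1.58. The enterocyte markers had medians of 0.66 on day 3 and -0.44 on day 5, and their part in these differences was not tested. Like Slc5a12, the genes Slc15a1, Slc6a19, Slc23a1, Slc34a2, Slc34a3 and Slc6a3 were too dim to be tested in the sorts.

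Slc23a3 and Slc27a2 differed in another way. They were near 0 on day 3 (0.03 and -0.06 for Slc23a3, 0.02 and 0.05 for Slc27a2). On day 5 Slc23a3 was at -1.82 and -1.47 and Slc27a2 at -1.48 and -1.49. A second probe of Slc27a2 above background gave -0.08 and -0.89 for the days, a smaller day 5 value. Both genes were also among the high members in GFPhi cells.

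Ferroportin had the highest day difference. Slc40a1 read -0.74 and -0.50 on day 3 and 1.99 and 1.84 on day 5, a difference of 2.54 ± 0.26 (n = 1 RNA pair a day). It was chosen with these values known, so no test is given. Its probe lies at chr1:45852956-45853015 (mm8). The mean of both days, 0.65, has no use as a summary here because the days stand on opposite sides of 0. Ferroportin is also made by macrophages, and the myeloid median went from 0.11 to 0.95 between the days. The myeloid markers did not move alike. Among its macrophage genes, Cd68 stayed level at 0.11 on day 3 and 0.097 on day 5. Csf1r was at -0.16 and 0.54, and Emr1 at 0.45 and 1.11. S100a8, a gene of neutrophils, was at 0.35 and 2.66, a larger rise than in these macrophage genes. The fibroblast markers moved from -0.53 to 4.75. The part of such cells in the Slc40a1 value was not tested.

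Below 0 on day 3 and above 0 on day 5 were also Slc13a1, a sulfate carrier, at -1.69 and -1.64, then 0.43 and 0.55, and Slc15a2 at -1.72 and -1.69, then 0.24 and 0.31. A second probe of Slc15a2 above background gave -1.12 and 0.48. Slc39a10, a zinc importer, was at -1.01 and -1.26, then 0.64 and 0.26. Slc1a3, a glutamate carrier of glia and connective tissue cells, was at -0.47 and -0.01, then 1.78 and 1.57. Slc2a6, a glucose transporter family member, was at -0.22 and -0.45, then 0.996 and 1.20. Slc41a1, a magnesium transporter, was at -0.86 and -0.88, then 0.41 and 0.41, but its second probe above background gave 0.17 and -0.02. Slc1a4, a carrier of small neutral amino acids, was at -0.73 and -0.53, then 0.66 and 0.55. Some other amino acid carriers, named after their values were seen, ran the same way. Slc7a5, a carrier of large neutral amino acids, had means of -0.74 and 0.37, Slc7a1, the arginine and lysine carrier, -0.89 and 0.22, and Slc1a5, the glutamine carrier, -0.87 and 0.17. Each of these 3 passed the test of the day difference (limma adjusted p from 0.00142 to 0.00176). Slc3a2, the heavy chain of Slc7a5, ran the other way at 0.26 and -0.31, and Slc43a2 was above 0 on both days. Cell-cycle genes had medians of -1.14 on day 3 and -0.07 on day 5, and their part was not tested. Of the genes in this paragraph, Slc13a1, Slc39a10, Slc2a6, Slc41a1 and Slc1a4 were too dim to be tested in the sorts.

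**Figure D4:**
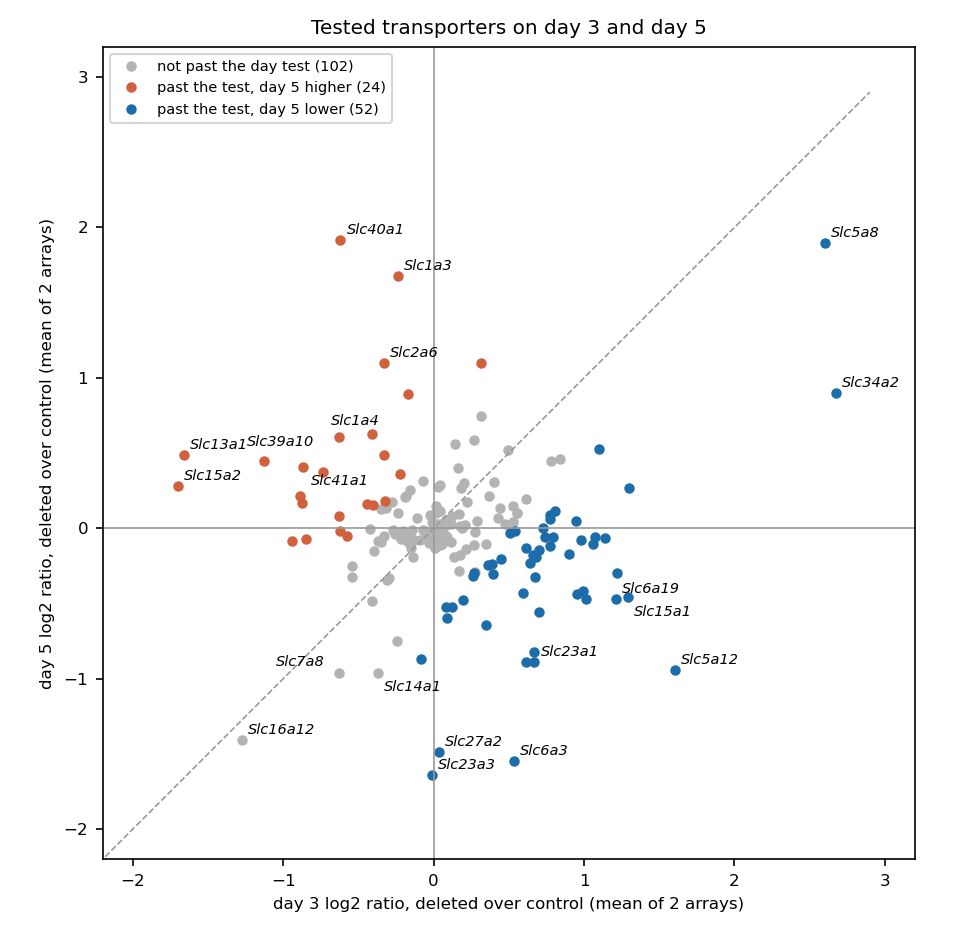
Each point is 1 of the 178 tested transporters, with the mean log2 ratio of the 2 day 3 arrays on the horizontal axis and of the 2 day 5 arrays on the vertical axis, both deleted over control. The dashed line marks equal ratios, and colours mark the 24 higher and 52 lower day differences past the test. Slc5a8 and Slc34a2 lie at the right above 0, Slc40a1 at the top left.

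Amino acid and peptide carriers thus divided in 2 directions. Of 33 tested, 11 were higher on day 5 past the test and 10 lower. The lower ones include the apical and basolateral absorptive carriers Slc15a1, Slc6a19, Slc3a1, Slc7a9 and Slc7a7, and also Slc1a1. The higher ones include Slc15a2, Slc7a5, Slc7a1, Slc7a6, Slc1a4, Slc1a5, Slc38a1 and Slc38a2. They also include Slc1a3, given above as a carrier of glia and connective tissue cells. Neither list is complete. Several of these were named after their values were seen. In 8 of the other classes with calls, lower calls outnumbered higher ones, where all genes had 13% lower and 16.9% higher. The classes are small, and some shares lie near those of all genes, such as 11.4% higher among inorganic ion carriers and 13.8% higher among metal carriers. Sugar carriers had 7 lower and 1 higher of 19, mono- and dicarboxylate carriers 6 and 1 of 15, vitamin and choline carriers 5 and 1 of 11, and neurotransmitter carriers 4 and 0 of 11. Inorganic ion carriers had 9 and 4 of 35, metal carriers 6 and 4 of 29, bile acid and organic ion carriers 3 and 0 of 11, and fatty acid carriers 2 and 0 of 5. Nucleoside and nucleotide sugar carriers had 0 lower and 2 higher of 7.

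A list of 16 well-known intestinal carriers was also read. It was drawn up with earlier results of these data known and repeats members counted above, so it is no separate support. Of the 16, 15 are members and 14 were tested in the deletion. The folate carrier Slc46a1 has no probe of that name, and the ileal bile acid carrier Slc10a2 was not well above background. Of the 14, 12 had a mean above 0 on day 3 and 11 a mean below 0 on day 5, and 9 did both. The medians were 0.66 and -0.15. Both day 5 arrays lay below both day 3 arrays for 9, and 8 passed the test as lower on day 5, where the shares of all genes were 33.2% and 13%. Slc5a1, the sodium-coupled glucose carrier, was at 0.72 and 0.77, then -0.06 and -0.05, and its second probe at 0.74 and -0.14. Slc2a5 was at 0.66 and 0.68, then -0.85 and -0.79. Slc7a9 and its heavy chain Slc3a1 averaged 0.73 and 0.67 on day 3 and -0.00 and -0.32 on day 5. Slc26a6 was at 0.86 and 0.69, then -0.13 and -0.11. Slc26a3, an apical chloride exchanger, was at 0.53 and 0.78, then -0.15 and -0.21, but another probe above background gave 0.17 and 0.75, the reverse order. Slc2a2, the basolateral glucose carrier, was at 0.22 and 0.32, then -0.29 and -0.30 (limma adjusted p = 0.111). Slc39a4, the zinc importer of the apical membrane, ran the other way, at -1.10 and -0.78, then 0.13 and -0.31. The basolateral bicarbonate carrier Slc4a4 and the apical iron importer Slc11a2 had day 3 means of 0.20 and 0.04 and day 5 means of 0.30 and 0.29. Second probes of these genes, above background, gave 0.14 and 0.05 for Slc4a4, and -0.17 and 0.51 or 0.08 and -0.04 for Slc11a2.

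**Figure D5:**
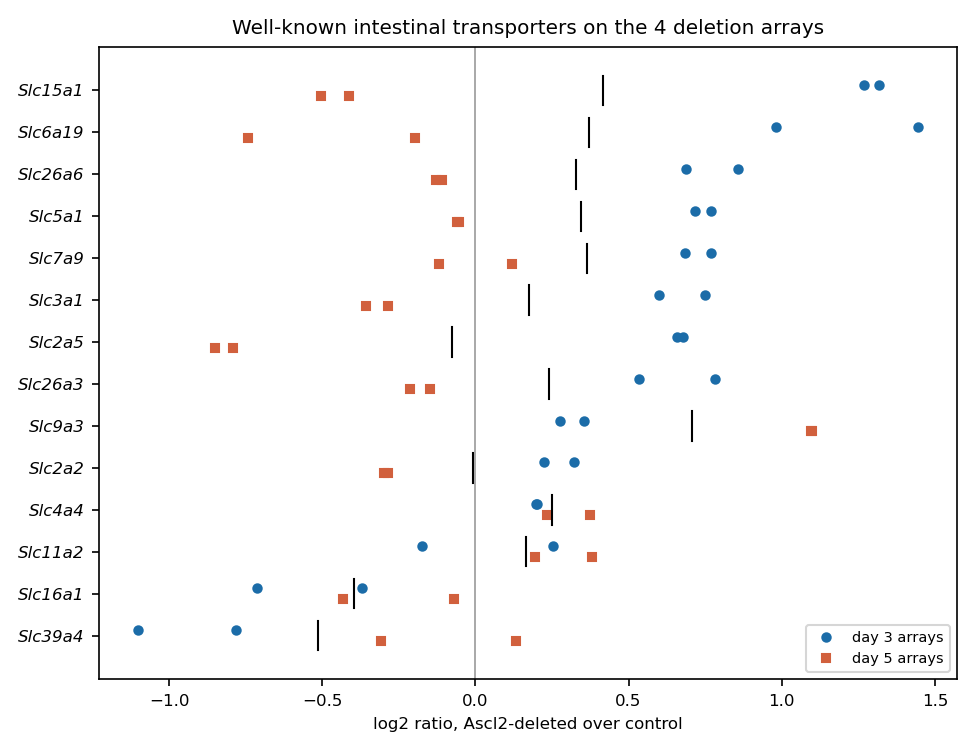
The horizontal axis is the log2 ratio of deleted over control epithelium for the 14 tested well-known intestinal carriers, ordered by their day 3 mean. Circles are the 2 day 3 arrays, squares the 2 day 5 arrays and black bars the mean of the 4. Day 3 lies to the right of day 5 for 9 carriers with no overlap, and Slc9a3, Slc39a4 and Slc4a4 show the reverse.

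Genes that work with these carriers, such as sodium pump subunits, chaperones of carriers, scaffolds, aquaporins and iron and zinc handling proteins, were read from a separate list of 27, of which 26 are on the array. In the sorts, 10 of 18 tested were above 0 (median 0.02), and in the deletion 14 of 25 (median 0.05), and none passed limma's test. Slco3a1, an organic anion carrier of another family, was at 1.09 and 1.22 in the sorts and at -1.002 and -0.70 on the 2 days, the same directions as Slc14a1 (limma adjusted p = 0.203 and 0.351). Aqp8, a water channel, was at -0.55 and -0.51 after deletion, and Atp1b1, a sodium pump subunit, at 0.34 and 0.25 in the sorts. Slco2a1, a prostaglandin carrier, was at 1.47 and 0.22 on the 2 days. Slco4a1 was at -0.69 and -0.24.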

How the data were processed

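Per the file headers, the authors' scanner files hold spot intensity values (mean foreground, median local background) from Feature Extraction 9.5.3.1, processed signal intensity and its log10 ratio of Cy5 over Cy3, with probes placed on mm8. The deposited series table holds log2 ratios of the same arrays in the labelled direction (r with the turned scanner ratios 0.964 to 0.999; medians -0.02 to 0.03); no label or header says whether they were centred. Array ratios here used normexp background correction (offset 50) and loess in limma 3.58.1 (R 4.3.3), and were turned by the dyes in the labels. Local backgrounds that the software had marked as outliers were replaced by the array's median of unmarked ones, a choice made after seeing the files, because a few far above their spots distorted the normexp fit of both sort 2 arrays. Dye swaps were averaged to 1 RNA pair. All 4 pairs entered 1 limma fit with a coefficient per comparison. The day difference used 3 coefficients. P-values are two-sided, and adjusted over all genes tested. Each slide holds 1 RNA pair, so slide and pair cannot be told apart. The members, substrate classes, marker lists and tests were chosen with earlier results of these data known. Named genes are Slc5a8, Slc7a8 and Slc40a1; the 12 highest and 12 lowest members with 1 sign on all 4 arrays in each comparison; the 8 largest day differences each way with no overlap; up to 4 members with the smallest p of each class; 16 well-known intestinal carriers; and members at 1.5-fold in both comparisons. No gene lies at the rule's limit of 300. Current symbols came from RefSeq, 228 members by accession and 24 by symbol; 3 had another current symbol (Slc24a6, Slc6a20, Slc9a10). The fits were tested on simulated data in both of these forms. With each gene's spread drawn from the fit's own prior, the sort and day tests recovered most of the changes put in. With each gene's observed difference between the sorts as its true spread, the day test recovered none of them, and the sort test recovered fewer. The first form was written after the second had failed for the day test, and the fits were not changed, so the count of day differences rests on the prior's description of the spread. Some named genes are not reported here. Slc17a6 lacks a value on 1 array.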

Additional observations from a re-analysis of the deposited data

Results flagged for a closer look

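Deletion ratios differed between day 3 and day 5 by limma's test of the difference in 23 of 28 members looked at (adjusted p from 2.23e-05 to 0.0137), where 29.9% of all genes tested passed. Of the 28, 15 were chosen for the size of this difference, so the count says nothing about the members. Each rests on 1 RNA pair a day, with the spread taken from the sorts, also for members too dim to be tested there. Day 5 minus day 3, in log2 units, was -2.54 for Slc5a12, -2.08 for Slc6a3, -1.78 for Slc34a2, -1.75 for Slc15a1 and -1.68 for Slc6a19. It was -1.63 for Slc23a3, -1.56 for Slc23a1, -1.52 for Slc27a2 and -1.49 for Slc2a5. Smaller differences of that sign were -0.995 for Slc3a1, -0.89 for Slc26a6, -0.84 for Slc26a3, -0.80 for Slc5a1 and -0.73 for Slc7a9. In the other direction the difference was 2.15 for Slc13a1, 1.98 for Slc15a2, 1.92 for Slc1a3 and 1.58 for Slc39a10. It was 1.43 for Slc2a6, 1.28 for Slc41a1, 1.24 for Slc1a4, 0.85 for Slc39a4 and 0.78 for Slc9a3. No array of the 4 sort arrays stood apart by Dixon's criterion in any of the 29 named members tested there.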

How the results depend on the processing

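With 2 RNA pairs a comparison and 1 a day, the fit decides the calls. In the sorts, 0 members passed in the joint fit, 26 when the sorts were fitted alone, 4 with the RNA pair as a random block, and 0 to 31 when 1 RNA pair was left out. Members with 1 sign on all sort arrays numbered 53 of 96, against 29 of 53 with the authors' deposited ratios (55.2% and 54.7%, fewer genes having values there), 14 with median centring, and 53 to 69 without 1 pair. The sorts' median of -0.048 became -0.033 without background subtraction, -0.063 with the scanner's processed signals, -0.068 with the deposited ratios and -0.028 without the filter on dim probes (-0.053 to -0.034 without 1 pair). In the deletion, 0 members passed, against 9 with the random block and 0 to 86 without 1 pair. Members with 1 sign numbered 49, against 19 with median centring and 49 to 148 without 1 pair. The median of 0.03 ran from -0.03 to 0.08 without 1 pair. For the day difference, 76 passed, against 38 of 153 with the deposited ratios and 27 with median centring. With the scanner's signals 0 members passed, and 0 of all 15994 genes tested. When only genes also above background in the sorts were tested, an alternative chosen after seeing the data, 40 of 96 passed. Fewer genes were tested with the deposited ratios and in the last. Without 1 pair of a comparison, 1 sign was asked of only its 2 remaining arrays, which more members meet. Leaving out a pair of the other comparison does not touch these arrays, so the counts of 53 and 49 stayed. The cause of the other shifts was not tested. Some single-gene values turned sign when 1 pair was left out. With day 3 alone or day 5 alone, in that order, Slc15a1 was at 1.29 and -0.46, Slc6a19 at 1.21 and -0.47, Slc3a1 at 0.67 and -0.32, Slc26a3 at 0.66 and -0.18 and Slc26a6 at 0.77 and -0.12. Slc5a1 was at 0.74 and -0.057, Slc7a9 at 0.73 and -3e-04, Slc40a1 at -0.62 and 1.92, Slc2a5 at 0.67 and -0.82 and Slc2a2 at 0.27 and -0.29. With sort 1 alone or sort 2 alone, Slc11a2 was at 0.026 and -0.055 and Slc3a1 at 0.0035 and -0.10. Slc11a2 was at 0.023 with the deposited ratios and 0.0086 with the marked backgrounds kept, which was added after seeing the data. The slide as a block was not run apart from the RNA pair. No paired analysis was possible because each array already compares both RNAs and each day has 1 RNA pair. Dim probes limit the sorts: 156 of 252 members were not tested there.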
